A study of Drosophila melanogaster with 6 samples.

Results

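Decapentaplegic (Dpp) is the BMP-type morphogen of the fly wing disc, and the 8 genes described here carry its signal from the ligand to the nucleus: dpp, gbb, tkv, put, sax, Mad, Med and shn. They were taken as every probe set annotated to 1 of these symbols alone, which gave 9 probe sets for 8 genes out of 13966 probe sets tested. The gene tkv had 2 probe sets and each of the other genes had 1. The samples were wing imaginal discs of Drosophila melanogaster larvae in the third instar, raised at 25 °C. In 3 samples, ACT1 to ACT3, the 71B-Gal4 driver expressed activated Egfr (the transgene EGFR-TOP). In the other 3, DN1 to DN3, the same driver expressed dominant negative Egfr (EGFR-DN). All 6 arrays thus carried 71B-Gal4 and an Egfr transgene, and discs lacking a transgene were not analysed here, so the groups are compared with each other and with no baseline. The labels do not say whether replicates came from separate animals, and p-values therefore reflect only the variation among these 6 arrays, which can be technical. The comparison asks whether transcripts of the Dpp pathway differed with the state of Egfr.

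In the wing disc, Dpp is secreted from a stripe of cells along the boundary between the anterior and posterior compartments and patterns growth and the veins on both sides of it. The ligand brings together type I and type II receptor kinases, which phosphorylate the Smad protein Mad. Mad enters the nucleus with its partner Medea and acts on target genes, in part by shutting off the repressor brinker together with Schnurri. Egfr signalling acts in the same epithelium and specifies veins alongside Dpp.

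The values are log2 probe set signals made by the authors with GCRMA, which corrects background by probe sequence and combines the probes of a set. Array medians lay between 8.00 and 8.06. The 4 yeast control probe sets, which match no fly transcript, averaged between 5.54 and 5.96 per array, and every member exceeded that on every array, the lowest value being 6.57. Of 11 wing disc epithelium markers 9 were measured, and all 9 were above the highest yeast control mean on all 6 arrays. The driven gene, Egfr, had 10.40, 10.26 and 10.82 in ACT1 to ACT3, against 8.50, 9.33 and 9.09 in DN1 to DN3, at 1 of its 2 probe sets. The other set had 8.50, 8.78 and 9.75 in activated discs, against 8.66, 10.03 and 10.11 in dominant negative discs. Whether either set detects the transgenes cannot be read from the files, and they were not taken as a check of the labels.

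No ligand, receptor or transducer differed between the transgenes beyond its spread between arrays. Of the 9 probe sets, 0 passed limma at an adjusted p under 0.05, where 0% of all 13966 did, and 0 had an unadjusted p under 0.05, against 2.21% of all probe sets. The adjusted p rounded to 1.00 for each member. The activated and dominant negative arrays overlapped for all 9, while 6.23% of all probe sets did not overlap between the groups. The log2 difference, activated minus dominant negative, was below 0 for 8 of the 9 and above 0 for 1, with a median of -0.19, beside a median of 0.02 and 45.4% below 0 over all probe sets. The members share arrays and are not independent of each other, so this count is a description. An exact permutation test over the 6 arrays, two-sided, gave no member a p below 0.2, and 3 against 3 arrays cannot give one below 0.1.

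**Figure D1:**
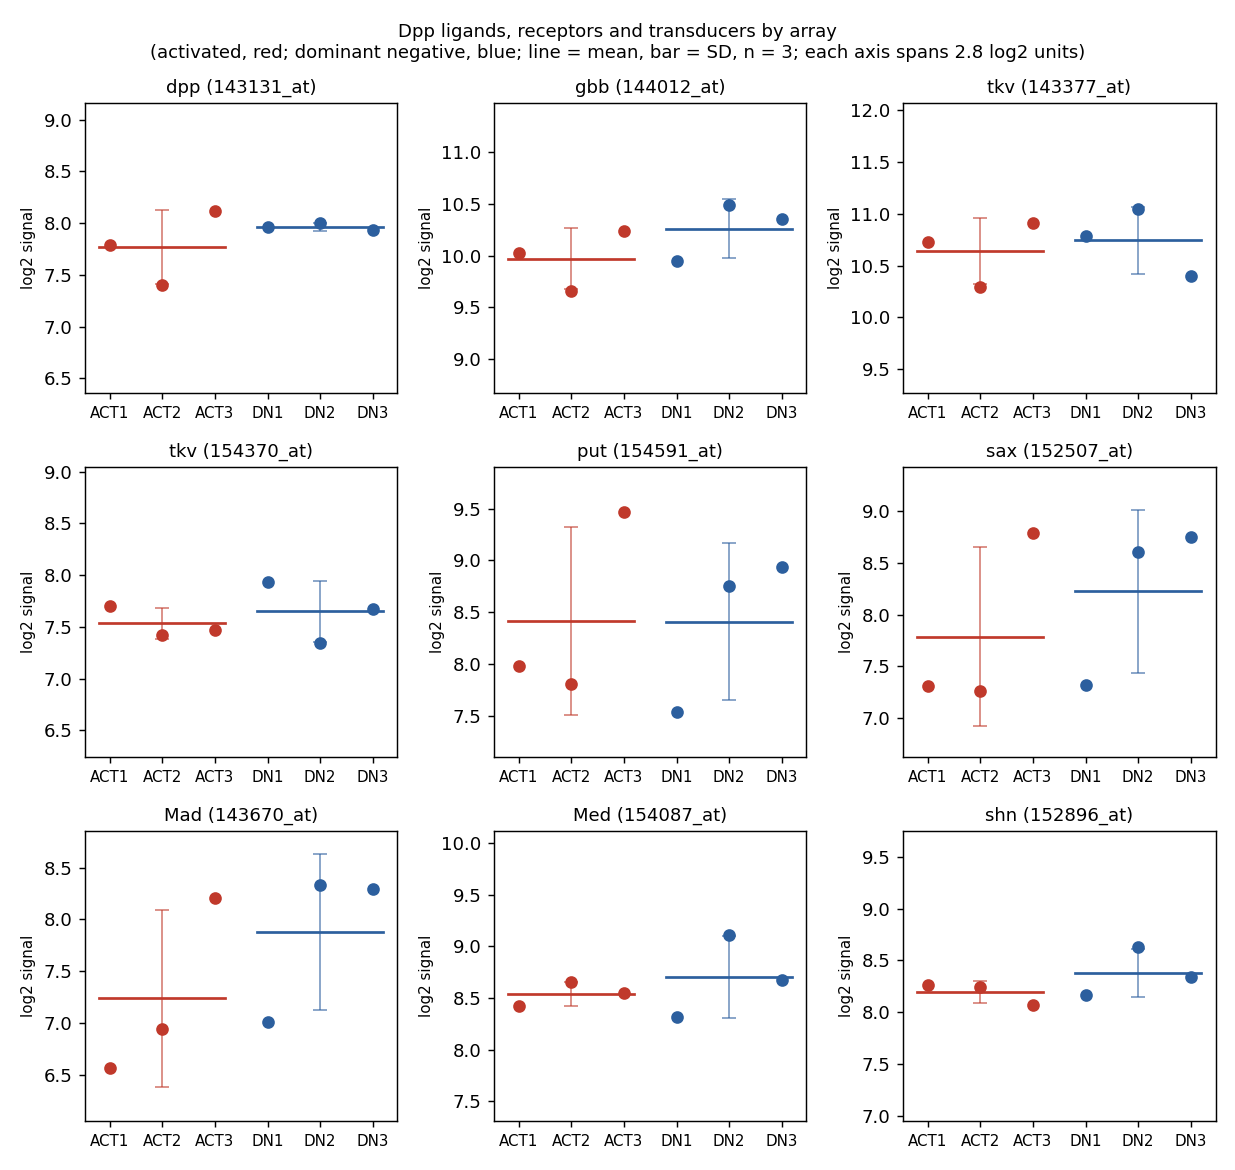
Log2 signal (vertical axis) of each of the 9 probe sets on the 3 activated arrays (red, left) and the 3 dominant negative arrays (blue, right), with each group's mean (line) and SD (bar, n = 3). The groups overlap in every panel, and put, sax and Mad spread most, with ACT3, DN2 and DN3 above ACT1, ACT2 and DN1.

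The ligand gene dpp encodes the fly's counterpart of BMP2 and BMP4. Its signal was 7.79, 7.40 and 8.11 in ACT1 to ACT3, against 7.96, 8.00 and 7.93 in DN1 to DN3. The dominant negative arrays lay close together and inside the range of the activated ones, which held both the lowest array, ACT2, and the highest, ACT3. The mean was 7.77 ± 0.36 for the activated receptor and 7.96 ± 0.04 for the dominant negative one (SD, n = 3 each). The log2 difference was -0.20 (SE 0.18), with a 95% interval from -0.61 to 0.22, which in folds is 0.65 to 1.16.

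The second ligand gene, gbb, encodes Glass bottom boat, a BMP expressed widely in the disc that signals together with Dpp. It had 10.03, 9.66 and 10.24 in activated discs, against 9.94, 10.49 and 10.35 in dominant negative discs. DN2 and DN3 were the highest of the 6 arrays and ACT2 the lowest, but DN1 lay below ACT1 and ACT3. The log2 difference of -0.29 (SE 0.20; 95% interval -0.74 to 0.16) was smaller than the range of 0.58 within activated discs and about the size of the SD within either group, 0.29 and 0.28.

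The type I receptor gene tkv encodes Thickveins, the main receptor kinase for Dpp, whose level in the disc helps to set how far the ligand spreads. Its brighter probe set had 10.73, 10.29 and 10.91 in activated discs, against 10.79, 11.04 and 10.40 in dominant negative discs. One array in each group, ACT2 and DN3, was low and the others were close together. The dimmer set had 7.70, 7.42 and 7.47 in activated discs, against 7.94, 7.35 and 7.67 in dominant negative discs. Here DN2 was lowest, whereas it was the highest array at the brighter set, so the 2 sets ordered the arrays differently. Their group differences were nevertheless close, at -0.10 (SE 0.21; 95% interval -0.58 to 0.38) at the brighter set and -0.12 (SE 0.18; 95% interval -0.52 to 0.28) at the dimmer one. Each was under the SD within groups, 0.32 and 0.23, and the sign turned when single arrays were left out, as given with the other settings.

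The gene put encodes Punt, the type II receptor that phosphorylates the type I receptors, and sax encodes Saxophone, a type I receptor that mainly binds Gbb. Neither separated the transgenes, and both moved widely within them. The signal of put was 7.97, 7.81 and 9.46 in ACT1 to ACT3, against 7.54, 8.75 and 8.94 in DN1 to DN3. Its group means were almost equal, 8.41 ± 0.91 and 8.41 ± 0.76 (SD, n = 3 each), and the log2 difference was 0.01 (SE 0.47). The 95% interval from -1.06 to 1.08 spans more than a 2-fold difference either way, so these arrays do not show that put was alike in the groups. Between its lowest array, DN1, and its highest, ACT3, put differed by 1.93, or 3.80-fold. The log2 difference was -0.52 without ACT3 and -0.43 without DN1, but 0.31 without ACT2, 0.27 without DN3, 0.23 without ACT1 and 0.18 without DN2.

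For sax the signal was 7.31, 7.26 and 8.79 in activated discs, against 7.32, 8.61 and 8.75 in dominant negative discs. ACT1, ACT2 and DN1 lay within 0.06 of each other, and the other 3 lay more than 1.2 higher. The log2 difference was -0.44 (SE 0.47), with a 95% interval from -1.49 to 0.62. It was -0.94 without ACT3 (unadjusted p = 0.0321, adjusted p = 0.661 in limma) and -0.89 without DN1. In the other direction it was -0.18 without ACT2 and without DN3, -0.20 without ACT1 and -0.25 without DN2.

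Mad encodes the Smad that the activated receptors phosphorylate. It had 6.57, 6.95 and 8.20 in ACT1 to ACT3, against 7.00, 8.34 and 8.30 in DN1 to DN3. ACT3 stood with DN2 and DN3, and DN1 stood with the other activated arrays. The means were 7.24 ± 0.86 for the activated receptor and 7.88 ± 0.76 for the dominant negative one (SD, n = 3 each). That is a log2 difference of -0.64 (SE 0.46; 95% interval -1.67 to 0.39), the largest in size among the 9 probe sets and still below the SD within groups of 0.81. The exact permutation p of Mad was 0.2. Its size depended on single arrays in both directions. The log2 difference was -0.30 without ACT1, -0.41 without DN2, -0.43 without DN3 and -0.49 without ACT2. It was -1.12 without ACT3 (unadjusted p = 0.0138, adjusted p = 0.661 in limma) and -1.08 without DN1 (unadjusted p = 0.0265, adjusted p = 0.972 in limma). Leaving out ACT3 also raised the count of all probe sets with an unadjusted p under 0.05 to 1043, against 308 with all arrays, and leaving out DN1 gave 518.

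Medea, the co-Smad encoded by Med, is the partner with which phosphorylated Mad enters the nucleus. Its gene had 8.42, 8.65 and 8.54 in activated discs, against 8.32, 9.11 and 8.68 in dominant negative discs. DN2 was high and DN1 low, with all 3 activated arrays between them. The log2 difference was -0.16 (SE 0.20; 95% interval -0.61 to 0.29). The zinc finger gene shn encodes Schnurri, the partner through which Mad and Medea repress brinker. It had 8.26, 8.24 and 8.07 in activated discs, against 8.17, 8.63 and 8.34 in dominant negative discs, where DN2 again stood highest. Its log2 difference was -0.19 (SE 0.16; 95% interval -0.54 to 0.17).

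**Figure D2:**
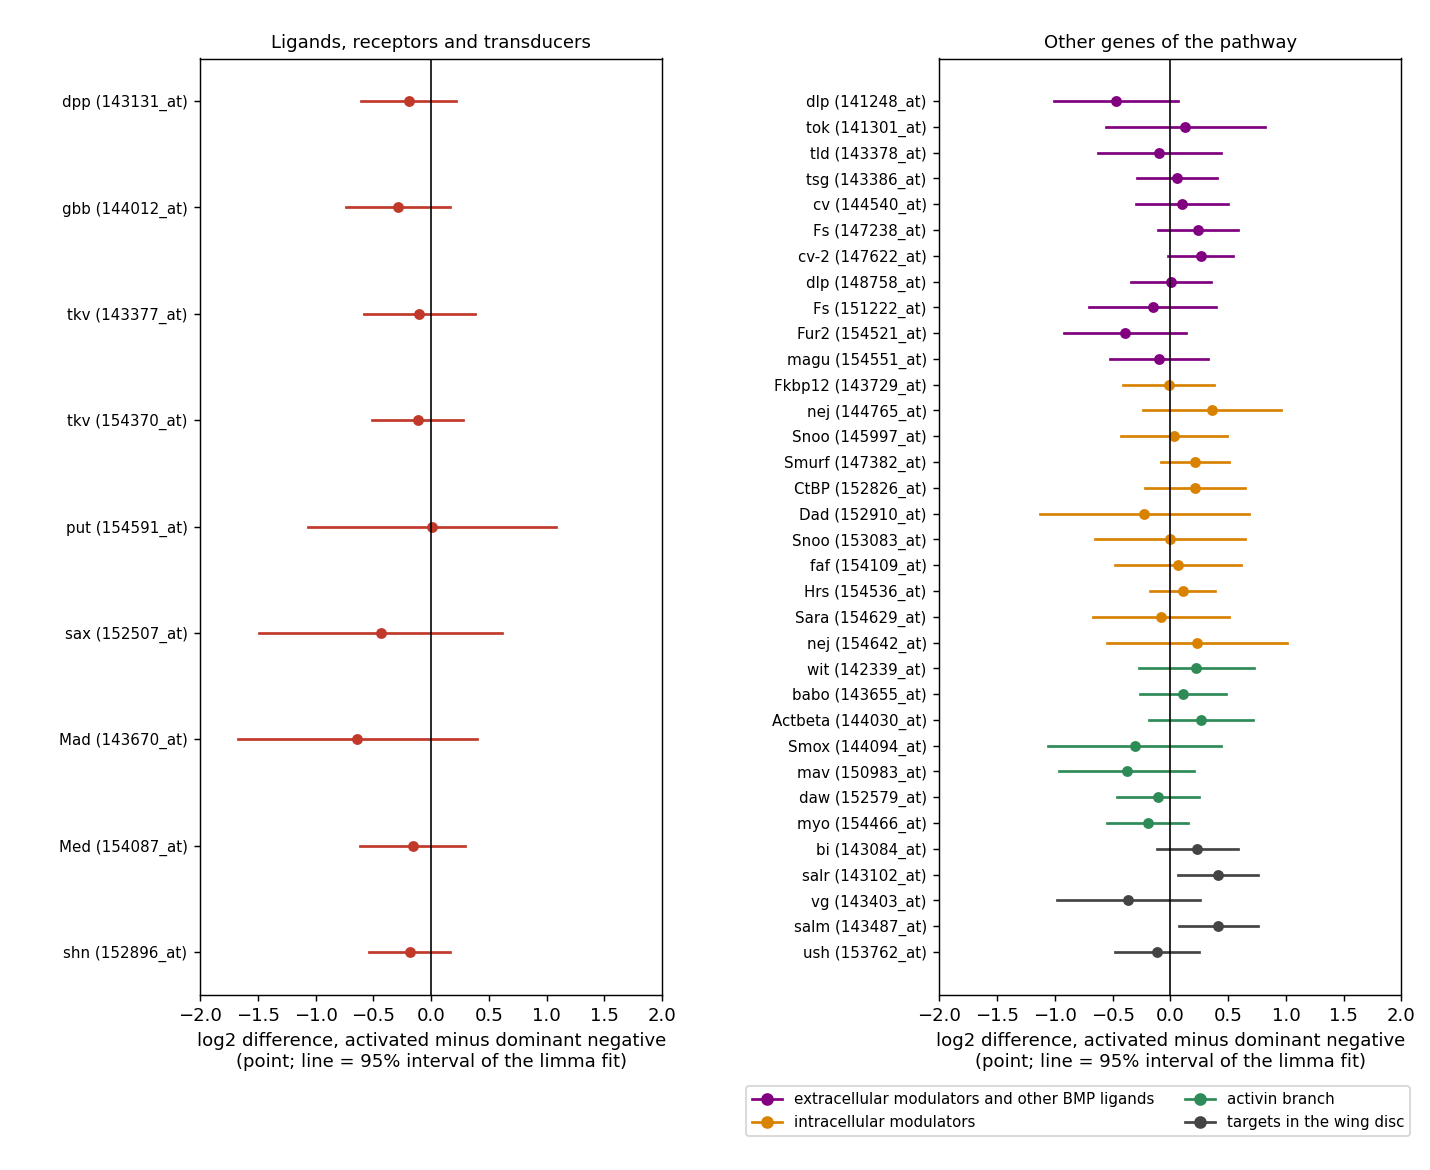
Log2 difference, activated minus dominant negative (horizontal axis), with the 95% interval of the limma fit, for the 9 probe sets of the ligands, receptors and transducers (left) and 34 probe sets of other pathway genes (right). All 9 intervals on the left include 0, and those of put, sax and Mad are the widest.

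The precision therefore differed among the members. For 6 of the 9 probe sets, those of dpp, gbb, tkv, Med and shn, the whole 95% interval lay inside a 2-fold difference in either direction. For the other 3, put, sax and Mad, it did not, and a 2-fold difference remained within the error. The share of each probe set's variation that lay between the transgenes, as a percentage of its sum of squares over the 6 arrays, had a median of 10.3% for the members and 9.30% for all probe sets. It was 28.6% for shn, 27.3% for gbb, 19.0% for Mad and 18.4% for dpp. It was 10.3% for Med, 9.52% for sax, 8.76% and 3.70% for the sets of tkv, and 0.00223% for put.

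What set put, sax and Mad apart was variation inside the groups. Their SD within groups was 0.84 for put, 0.83 for sax and 0.81 for Mad, against a median of 0.20 over all probe sets. These values exceeded those of 99.5%, 99.4% and 99.4% of all probe sets. The range over the 6 arrays was above 1 for these 3 members and for 8.23% of all probe sets. For the remaining 6 the SD ran from 0.18 for shn, the only member below the median of all probe sets, to 0.32 for the brighter set of tkv.

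**Figure D3:**
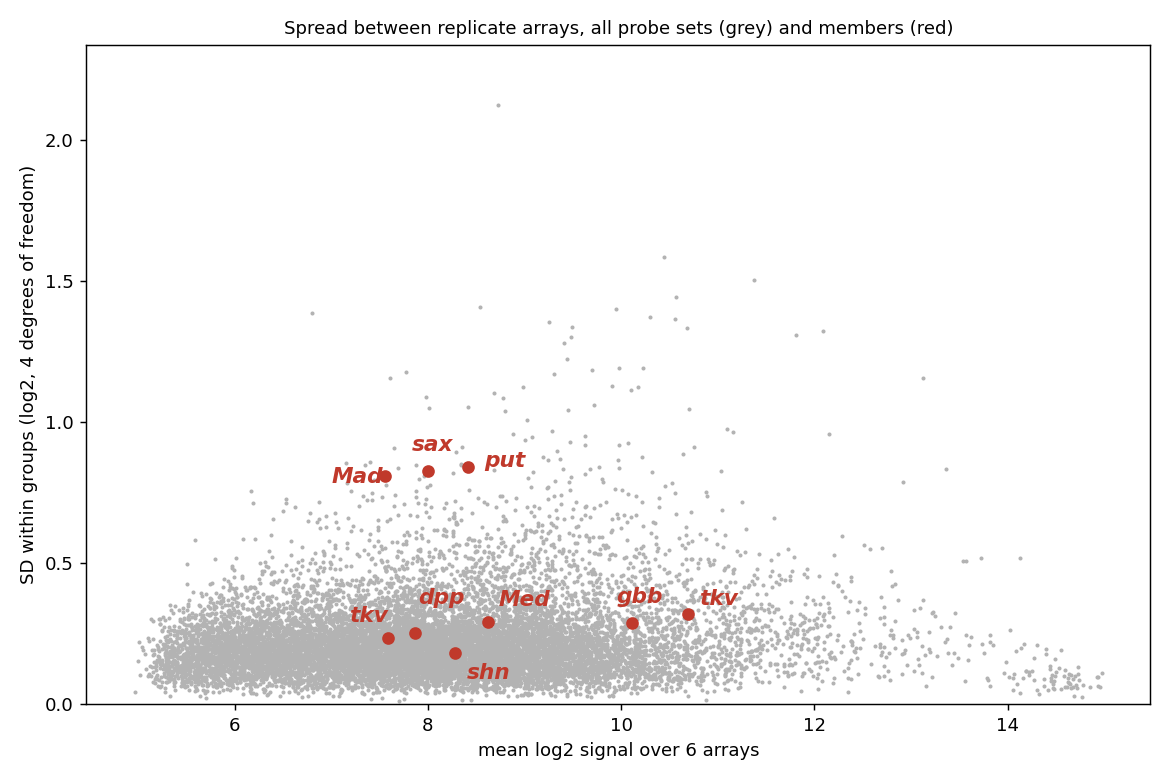
SD within groups (vertical axis, log2) against the mean log2 signal over 6 arrays (horizontal axis) for all probe sets (grey) and the 9 members (red). The probe sets of put, sax and Mad lie between 0.81 and 0.84, above 99.4% or more of all probe sets, while the other 6 lie at 0.32 or below.

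The 3 variable genes shared an order of arrays that crossed the transgenes. ACT1, ACT2 and DN1 were the 3 lowest arrays for gbb, put, sax and Mad, that is for 4 of the 9 probe sets. The same 3 arrays were highest for 0 of the 9 member probe sets and for 19.3% of all probe sets. They were lowest for 13.9% of all probe sets, so the order is not particular to the pathway. The high side held 1 activated and 2 dominant negative arrays. Its part in the differences between the transgenes was not tested. By array, 2 of the 9 probe sets lay above their own group's mean in ACT2 and 2 in DN1, against 7 in ACT3 and 8 in DN2. In ACT1 and DN3 there were 5 in each. Over all probe sets the corresponding share ran from 41.6% in ACT3 to 57.8% in DN1.

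Markers of the salivary gland, an organ outside the disc, moved with the same arrays. All 7 measured markers exceeded the yeast controls on every array, and 5 of 7 had ACT1, ACT2 and DN1 as their 3 lowest arrays. Their summed linear signal was 3049, 4075 and 10650 in ACT1 to ACT3, against 3946, 13131 and 13770 in DN1 to DN3. The glue protein gene Sgs3, named after its values were seen, had 7.51, 8.01 and 9.01 in activated discs, against 7.86, 10.34 and 9.95 in dominant negative discs. Of the measured markers of other cells, the order held for 1 of 3 in the fat body list, 2 of 5 in the tracheal list and 1 of 5 in the myoblast list. It held for 0 of 6 in the hemocyte list, 0 of 6 in the eye-antennal list and 0 of 2 in the leg and haltere list. The myoblast marker with this order, htl, named after its values were seen, was not above the yeast controls on all arrays. Across the fat body list the summed signal ran from 2052 to 6383 in activated and from 4184 to 8502 in dominant negative discs. The corresponding range for the tracheal list was 8558 to 11803 in activated and 10076 to 14698 in dominant negative discs. The sums of the hemocyte and myoblast lists did not overlap between the groups and were lower in activated discs. They were 1961 to 2470 against 3238 to 3493 for hemocytes, with 4 of 6 markers above the yeast controls on all arrays. For myoblasts they were 1741 to 1962 against 2144 to 2351. In the hemocyte list only SPARC, named after its values were seen, did not overlap between the groups. It had 10.60, 9.98 and 10.52 in activated discs, against 11.15, 11.27 and 11.31 in dominant negative discs. Hml, Pxn and Col4a1, the other hemocyte markers above the yeast controls, overlapped, so the hemocyte sum does not describe the list as a whole. The eye-antennal and the leg and haltere sums overlapped. The part of these lists in the differences between the transgenes was not tested. The order also held for 5 of the 9 measured wing disc epithelium markers, with sums from 5286 to 6540 in activated and from 4464 to 5758 in dominant negative discs. No defining marker of the salivary gland was at background, and the part of these cells in the spread of put, sax and Mad was not tested. In whole discs, fewer cells of a type and less RNA per cell cannot be told apart.

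Among the messenger RNA controls, the 3′ levels of GAPDH, actin and eIF-4a had this order, while the difference between their 3′ and 5′ ends, a sign of RNA quality, did not. For GAPDH the 3′ probe set had 12.58, 12.19 and 13.43 in ACT1 to ACT3, against 12.61, 13.06 and 13.39 in DN1 to DN3, again highest in ACT3, DN2 and DN3. That of actin was 12.70, 12.08 and 13.20 in activated discs, against 12.65, 12.98 and 13.14 in dominant negative discs. That of eIF-4a was 13.78, 13.65 and 13.83 in activated discs, against 13.82, 13.97 and 13.84 in dominant negative discs, with ACT3 and DN1 only 0.01 apart. The log2 difference between the 3′ and 5′ probe sets of GAPDH was 1.00, 1.25 and 1.56 in activated discs, against 1.03, 1.17 and 2.00 in dominant negative discs. It was highest in DN3 and ACT3, while DN2 lay below ACT2. For actin it was 0.85, 0.87 and 0.96 in activated discs, against 0.53, 0.36 and 1.68 in dominant negative discs. For eIF-4a it was 1.05, 1.45 and 1.06 in activated discs, against 0.92, 0.76 and 1.39 in dominant negative discs. Both were lowest in DN2, an array on the high side for put, sax and Mad, and eIF-4a was highest in ACT2, on the low side. The part of RNA quality in the spread of the members was not tested.

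The genes whose signals followed the members most closely over the 6 arrays were looked up for each member's brightest probe set, among 11371 or 11372 probe sets of other genes with a mean log2 signal of at least 6. Likeness was measured as Pearson's r over the 6 arrays, which share labelling, hybridisation and the array order above, and it is given without a p. For put the closest were kud (r = 0.998) and the importin gene Pen (r = 0.997), and 186 probe sets had an r above 0.95. The closest to sax were the ribosomal protein gene RpL37-1 (r = 0.997) and bsd (r = 0.996), with 266 probe sets above 0.95. Mad was closest to UQCR-14, a respiratory chain gene (r = 0.998), and vap (r = 0.996), with 175 probe sets above 0.95.

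The steadier members had fewer close followers. For dpp they were the apical polarity gene crb (r = 0.991) and CG17266 (r = 0.991), among 67 probe sets above 0.95. The closest to gbb were the talin gene rhea (r = 0.991) and Arl6IP1 (r = 0.990), among 83. For tkv they were Hairless, written H (r = 0.987), and Pa1 (r = 0.986), among 22. Med was closest to Snmp1 (r = 0.988) and MESK2 (r = 0.986), among 16, and shn to Muc4B (r = 0.980) and CG7381 (r = 0.971), among 5.

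Other genes of the pathway were followed through 4 lists with 37 names, of which 30 genes with 34 probe sets were measured. Of the 34 probe sets, 0 passed limma over all probe sets. The log2 difference was above 0 for 19 and below 0 for 15, with a median of 0.05 and no value above 0.47 in size. The groups did not overlap for 5 of the 34, those of cv-2, Smurf, Hrs, salm and salr, and all 5 were higher in activated discs, where 3.39% of all probe sets showed this. The names scw, sog, dally, Fur1, brk, lack and FKBP2 had no probe set under their symbol alone and were not analysed here.

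Extracellular modulators, which bind, cleave or carry the ligands, had 0 of 11 probe sets called, 6 above 0 and 5 below, and a median log2 difference of 0.00. The gene with the smallest p was cv-2, which encodes Crossveinless 2, a BMP-binding protein needed for the crossveins. It had 8.85, 8.78 and 8.79 in activated discs, against 8.62, 8.50 and 8.51 in dominant negative discs. All 3 activated arrays lay above all 3 dominant negative ones, by a log2 difference of 0.26 (SE 0.12; unadjusted p = 0.0635, adjusted p = 1.00 in limma). For the glypican gene dlp, whose protein carries morphogens at the cell surface, 1 probe set had a log2 difference of -0.47 (SE 0.24) and the other had 0.00 (SE 0.15). The groups overlapped at both. Named after its values were seen, the metalloprotease gene tok had 9.38, 9.33 and 10.28 in activated discs, against 9.01, 9.59 and 10.00 in dominant negative discs, with the same 3 arrays low as for put.

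Intracellular modulators had 0 of 11 probe sets called, 7 above 0 and 4 below, and a median of 0.07. Smurf, a ubiquitin ligase that lowers Mad, had 9.28, 9.14 and 9.32 in activated discs, against 9.12, 9.04 and 8.94 in dominant negative discs. The groups did not overlap, but ACT2 and DN1 were only 0.02 apart, and the log2 difference was 0.21 (SE 0.13). Hrs, which acts in endosomal sorting of receptors, had 9.89, 9.88 and 10.02 in activated discs, against 9.80, 9.81 and 9.86 in dominant negative discs, a log2 difference of 0.11 (SE 0.13). The co-activator gene nej had 0.36 (SE 0.26) at 1 probe set and 0.23 (SE 0.35) at the other, with overlapping groups at both.

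In the activin branch, which uses related receptors and the Smad encoded by Smox, 0 of 7 probe sets were called, with 3 above 0, 4 below and a median of -0.11. Its genes of smallest p were the ligand gene mav, with a log2 difference of -0.38 (SE 0.26), and Actbeta, with 0.27 (SE 0.20). Actbeta was near background, at 5.69, 6.28 and 5.64 in activated discs, against 5.38, 5.67 and 5.76 in dominant negative discs.

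Targets of Dpp in the disc had 0 of 7 probe sets called, 3 above 0 and 4 below, and a median of -0.10. The spalt genes, which place veins in the wing blade, were the 2 with an unadjusted p under 0.05. For salm the values were 9.05, 9.02 and 9.36 in activated discs, against 8.60, 8.72 and 8.87 in dominant negative discs. For salr they were 10.90, 10.92 and 10.88 in activated discs, against 10.61, 10.20 and 10.65 in dominant negative discs. Neither overlapped between the groups, and each had a log2 difference of 0.41 (SE 0.15; adjusted p = 1.00 in limma). Of the 7 target probe sets, 4 had ACT1, ACT2 and DN1 as their 3 lowest arrays, as for put, sax and Mad. That order did not hold for salm, salr and bi, the last named after its values were seen. Dad and vg, also named after their values were seen, are 2 of the 4 with it. Dad, the inhibitory Smad induced by the signal, had 6.85, 6.88 and 7.79 in activated discs, against 6.49, 7.57 and 8.14 in dominant negative discs. The wing selector gene vg had 8.44, 8.31 and 8.97 in activated discs, against 8.34, 9.38 and 9.09 in dominant negative discs. Of the 34 pathway probe sets, 11 had ACT1, ACT2 and DN1 as their 3 lowest arrays, against 13.9% of all probe sets.

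**Figure D4:**
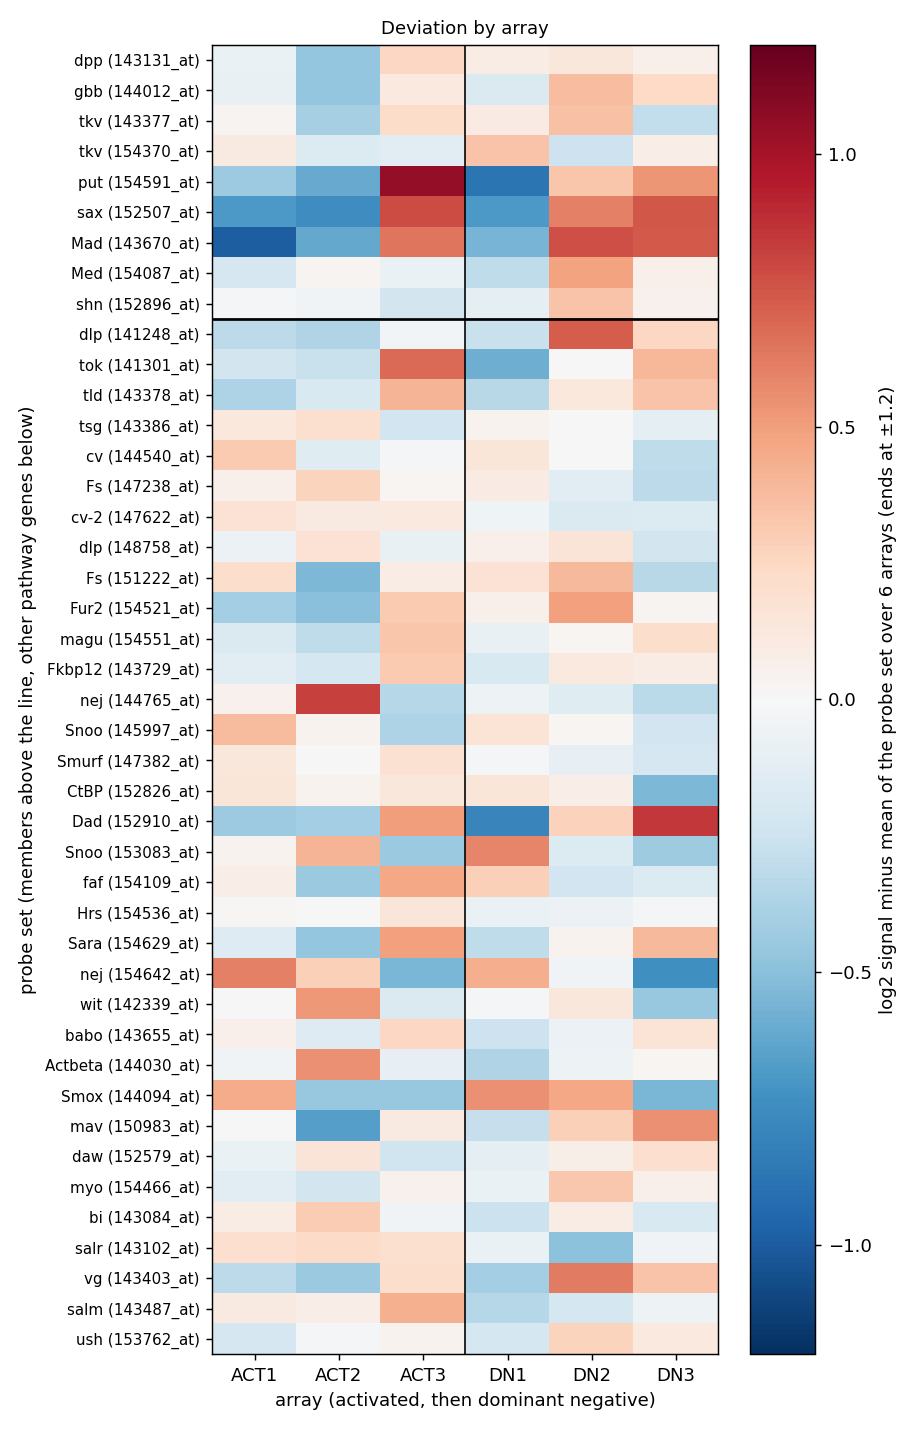
Log2 signal minus the mean of the probe set over 6 arrays (colour), for the 9 member probe sets (above the line) and 34 probe sets of other pathway genes (below), on the 3 activated arrays (left) and the 3 dominant negative arrays (right). The rows of put, sax and Mad are low on ACT1, ACT2 and DN1 and high on ACT3, DN2 and DN3, and those of Dad and vg follow the same order.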

How the data were processed

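RNA of wing discs was measured on 6 Affymetrix arrays, 3 per transgene, from 6 µg of total RNA per the labels' protocols. The deposited values are log2 signals, 1 per probe set and array, made by the authors with GCRMA per the submitters' processing notes. The version of GCRMA is not stated in those notes. That the scale is log2 follows from the range, 4.72 to 15.08. Of 14010 probe sets, 44 controls were left out and 13966 were tested without a filter. The probe table gave 1 symbol for 12443 of these, several for 327 and none for 1196; the symbols of all 9 member probe sets matched RefSeq by Entrez identifier. Groups were taken from the sample titles. The comparison used limma 3.58.1 under R 4.3.3 (lmFit, then eBayes, two-sided) over all probe sets with Benjamini-Hochberg adjustment; intervals are 95% intervals of that fit. The fit was also tested on simulated data whose noise was independent between probe sets. Those data lacked the array order shared by many probe sets here, so that test does not cover it. Scanner files were not used here, and the number of arrays limits the precision. Figures were drawn with matplotlib 3.10.9.

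The members and lists were chosen with earlier results of these data known. Genes named are all members, Egfr, the 2 genes most like each member, and of each pathway list the 2 genes of smallest p and those without overlap; any further gene is marked in the text as chosen after seeing its values. Alternatives were median centring, quantile normalization, a filter at a mean of 6, a trend with robust prior, array weights, a replicate block, gene-level values and leaving out each array.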

Additional observations from a re-analysis of the deposited data

How the results depend on the processing

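No member passed the adjusted threshold under any of the alternatives run, and the smallest adjusted p was 0.619, for Mad with array weights. The sign of dpp, gbb, sax, Mad and shn held throughout. Leaving out 1 array moved the log2 difference, activated minus dominant negative, from -0.37 to -0.01 for dpp, -0.45 to -0.13 for gbb, -0.94 to -0.18 for sax, -1.12 to -0.30 for Mad and -0.29 to -0.06 for shn. It turned the sign of tkv at the brighter set (0.073 without ACT2, 0.046 without DN2; range -0.27 to 0.07) and at the dimmer set (0.024 without DN1; range -0.27 to 0.02). It also turned Med (0.042 without DN2; range -0.35 to 0.04) and put (-0.52 without ACT3, -0.43 without DN1; range -0.52 to 0.31). The sign of put, near 0, also turned with median centring (-0.0045) and quantile normalization (-0.015). Array weights gave put -0.39, the dimmer set of tkv 0.029, sax -0.86 and Mad -1.16. In that setting sax had an unadjusted p of 0.0442 (adjusted p = 0.623 in limma) and Mad 0.0131 (adjusted p = 0.619 in limma). Over all probe sets 1109 then had an unadjusted p under 0.05 in limma, against 308 without weights. The weights ran from 0.53 for ACT3 to 2.47 for ACT1. The median over the members ran from -0.37 to -0.13 with 1 array left out. The median of the Dpp targets was 0.14 without DN3 (range -0.17 to 0.14), and those of the other pathway lists lay between -0.18 and 0.23 under all settings. The cause of these shifts was not tested. Over all probe sets 0 were called, but 1 was with array weights and 1 gene with the mean of its probe sets, neither a member. Replicate numbers paired the arrays only in part: the deviations of same-numbered arrays had correlations of 0.61, -0.08 and 0.60 across probe sets. ACT2 was closest to DN1, at 0.29, the highest correlation among arrays of different numbers. With the replicate block, Mad had an unadjusted p of 0.0218 (adjusted p = 0.818 in limma), at an unchanged log2 difference of -0.64. Its SE was 0.23 with the block and 0.46 without it. The block gave 774 probe sets an unadjusted p under 0.05 in limma, against 308 without it, and 0 probe sets were called.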

Other observations

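The ribosomal RNA control differed between arrays by far more than any member. The 3′ probe set of 18S rRNA had 11.97, 6.93 and 6.85 in ACT1 to ACT3, against 12.80, 10.13 and 6.81 in DN1 to DN3. It was high in ACT1, DN1 and DN2, an order that none of the 9 members shared.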
